A study of Mus musculus with 4 samples.

Results

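Lung RNA of mice with and without Rab44 was examined for 106 genes of the motile cilium and its axoneme, out of 41079 genes in the count table. The genes were chosen by symbol. They are those whose symbol begins with Dnah, Dnai, Dnal, Cfap, Rsph, Drc, Odad, Tekt or Spag followed by a digit, together with Hydin, Foxj1, Spef1 and Spef2. Rab44-KO mice carried a Rab44 gene, which encodes a large Rab GTPase, disrupted by CRISPR/Cas9 on the C57BL/6 background, and WT littermates served as controls. All mice were 8 to 14 weeks old. OVA-induced mice of both genotypes were sensitized by intraperitoneal injection of 100 µg ovalbumin (OVA), an egg white protein, with alum on day 0, day 7 and day 14, were given 100 µg of OVA in 50 µL through the nose daily between day 17 and day 20, and had their lungs taken on day 21. Normal mice of both genotypes have no treatment in their labels. Each of the 4 combinations was sequenced as 1 library, and the number of mice behind a library was not given in the sources used here. No difference between libraries therefore has a replicate check, and no test of a condition was run.

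The axoneme is the microtubule core of a motile cilium. Outer and inner dynein arms on its outer doublets are motors that slide the doublets against each other, and radial spokes, the central pair and the nexin-dynein regulatory complex turn that sliding into a beat. In the lung, multiciliated cells of the airway lining carry these cilia and move mucus out of the airways, whereas alveolar cells and leukocytes do not. The transcription factor Foxj1 directs the motile cilium program in these cells, together with RFX factors that bind a sequence called the X-box. Dynein heavy chains and Hydin are among the longest proteins of the cell, so their messages are very long, whereas tektins and many proteins inside the doublets are short. Among members that reached 100 counts, the longest annotated transcript ran from 567 bases in Cfap144 to 16685 bases in Dnah8, so transcript length is given beside the main results.

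The X-box is shown because it is a sequence that the choice of genes did not use and whose half-site was found in a minority of members, but in a larger share of them than of all genes. Promoter sequences of 300 bases, with 250 bases before and 50 bases after the start of transcription, were taken from RefSeq on GRCm38.p6 and matched 87 of the 106 genes. The half-site GTTGCC, searched on both strands, was present in the promoters of 33 of these 87 genes (37.9%) and of 3821 of all 27025 genes with such a promoter (14.1%). The full X-box, searched on both strands as GTTGCC, any 2 bases and GGNAAC, and thus overlapping the half-site, was present for 3 of the 87 genes (3.45%) and for 96 of all genes (0.355%). The forkhead motif GTAAACA was present for 4 of the 87 genes (4.60%) and 4.05% of all genes, and the variant GTCAACA for 3 (3.45%) and 2.88%. The following stretches lie before the start that RefSeq gives, which can differ from that of GENCODE, and read 5′ to 3′ along the gene, with the motif in capitals, which is the full X-box in the first 3 lines and the half-site, here on the opposite strand, in the others (the X-box of Cfap96 is on the opposite strand too).
Cfap298 (chr16:90934984-90935077, minus strand): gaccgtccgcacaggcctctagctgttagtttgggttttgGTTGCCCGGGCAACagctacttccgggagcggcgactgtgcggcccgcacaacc
Cfap20dc (chr14:8666339-8666432, minus strand): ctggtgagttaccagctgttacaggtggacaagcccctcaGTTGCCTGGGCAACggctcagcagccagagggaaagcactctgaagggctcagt
Cfap96 (chr8:45975253-45975317, minus strand): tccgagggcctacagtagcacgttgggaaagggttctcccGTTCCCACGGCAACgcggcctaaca
Hydin (chr8:110266924-110266976, plus strand): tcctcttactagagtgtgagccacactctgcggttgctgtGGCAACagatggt
Cfap44 (chr16:44394740-44394798, plus strand): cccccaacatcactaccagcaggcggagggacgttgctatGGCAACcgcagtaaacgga
Cfap46 (chr7:139683816-139683864, minus strand): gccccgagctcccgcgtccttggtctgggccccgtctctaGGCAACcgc
Cfap298 encodes a protein needed for dynein arm assembly, and Cfap20dc and Cfap96 are little-described cilium genes. Hydin, a central pair protein, Cfap44, a protein that tethers inner dyneins, and Cfap46, another central pair protein, were among the genes with the largest differences described below. They were picked for this, and other genes with such differences lacked the half-site. Among these were Dnah1, Dnah6, Dnah11, Dnah12 and Cfap47, while Dnah3 and Rsph4a had no promoter sequence to search. A match of letters is a description and does not show that a factor binds there. Of the genes with enough counts, the 33 with the half-site had a median log2FC of 0.42 and the 50 without it 0.35 in the comparison of OVA-induced Rab44-KO with OVA-induced WT lungs, or 0.59 and 0.36 after adjustment for transcript length. The other motifs ran the other way, in few genes. The 3 genes with the full X-box had a median of 0.18 and the 80 without it 0.40 (0.37 and 0.47 adjusted). For GTAAACA the medians were -0.24 for 4 genes with it and 0.41 for 79 without. For GTCAACA they were 0.05 for 2 genes and 0.41 for 81.

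The 4 libraries held from 18112901 to 19910236 counts. Counts were scaled to CPM, which are counts relative to the library's total with TMM factors applied, and log2FC is the log2 ratio of CPM in the first over the second library, for genes that reached 10 counts in one of both. Ranges in parentheses are exact 95% Clopper-Pearson intervals of that ratio and cover counting error only. Rab44 itself had 251 normal and 810 OVA-induced counts in WT lungs, and 1 and 0 in Rab44-KO lungs, so the libraries went with their genotype labels. The methods describe the mice as female, but Y-linked transcripts were present in every library. The Y-linked gene Ddx3y had 1942 normal and 1536 OVA-induced counts in WT lungs, and 1772 and 2216 in Rab44-KO lungs. Xist, which is expressed from the inactive X chromosome of females, had 41 and 538 in WT, and 40 and 72 in Rab44-KO lungs. The Y-linked gene Eif2s3y had 397 and 1730 in WT, and 1259 and 1541 in Rab44-KO lungs. OVA-induced WT thus stood apart in Xist and normal WT in Eif2s3y, and every comparison with these libraries below carries such a difference, whose part in the results was not tested.

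Of the 106 genes, 100 had at least 10 counts in some library, 89 had at least 100, and Cfap107, Rsph6a and Spag11a had no count in any library. A count of 0 here allows up to 3 counts of the library's total, as a one-sided 95% limit. Multiciliated cell markers outside the set were present, with summed levels of 3751 CPM in normal and 2502 CPM in OVA-induced WT lungs, and of 3359 and 2918 CPM in Rab44-KO lungs. Sec14l3, a lipid-binding protein abundant in airway ciliated cells, made up 60.0% to 68.4% of these sums. Without it they were 1184.3 and 1001.3 CPM in WT, and 1080.8 and 1123.3 CPM in Rab44-KO lungs, so that the Rab44-KO sum was no longer lower with OVA. By gene, 5 of 33 were above 0 in the OVA response of WT lungs, and 22 of 33 in that of Rab44-KO lungs (median log2FC 0.18). Markers of male germ cells, which build the same apparatus in the sperm tail, summed to at most 0.465 CPM in any library, and Odf1 and Tnp1 among them had no count. The highest levels per transcript length, in TPM as deposited and averaged over the libraries, were those of Cfap144 (130 TPM), Rsph1, a radial spoke head protein (109 TPM), Foxj1 (79.3 TPM), Spag7 (78.4 TPM), Cfap20, a doublet protein (65.7 TPM), and Spag9, a kinase scaffold found in many cells (60.0 TPM). The dynein heavy chain with the highest level was Dnah6, an inner-arm motor, at 13.1 TPM, and Hydin stood at 4.66 TPM. For 11 of the 106 genes, Cfap298 (53.6%), Tekt2 (20.8%) and Dnah3 (10.5%) among them, over 10% of exon bases overlap another gene, mostly on the opposite strand, and how far the counting kept the strands apart was not given in the sources used here.

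Summed over all 106 genes, the set took 43451 counts (2263 CPM) in the WT library under normal and 38082 (1966 CPM) under OVA-induced conditions, and 42491 (2328 CPM) and 52598 (2698 CPM) in the Rab44-KO libraries. The sum was lowest in OVA-induced WT and highest in OVA-induced Rab44-KO lungs. The 19 genes with transcripts over 8 kb differed more in proportion, with 436 and 349 CPM in WT, and 503 and 690 CPM in Rab44-KO lungs. The genes under 2 kb summed to 447 and 400 CPM in WT, and to 411 and 391 CPM in Rab44-KO lungs, and were thus close to each other in the OVA-induced libraries. In RNA of whole lung, fewer cells of a type and less RNA per cell cannot be told apart.

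Under normal conditions, the set differed little between genotypes. Of 97 genes with enough counts, none was over 2-fold apart in either direction, where 2.77% of all genes were over 2-fold higher in Rab44-KO and 2% lower. Over 1.5-fold, none was higher (6.83% of all genes) and 1 was lower (4.61%). The median log2FC was 0.06, against 0.00 for other genes, with 62 genes above and 35 below 0 (50.8% and 49.2% of all genes). Counting intervals lay above 0 for 17 genes and below 0 for 8, where 14.6% and 14.8% of all genes were, and none lay wholly beyond 2-fold (0.272% and 0.102%). The lowest value was that of Cfap144, with 696 WT and 425 Rab44-KO counts and a log2FC of -0.64. Rsph1 had 1106 and 763 counts (-0.46). All 9 inner-arm dynein heavy chains were above 0, between 0.02 for Dnah10 and 0.39 for Dnah6. Their transcripts are all over 12 kb, and of 169 other genes of that length 128 were above 0. After adjustment for transcript length the 9 ran from -0.08 to 0.29.

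Under OVA-induced conditions, 12 of 100 genes were over 2-fold higher in Rab44-KO and 2 over 2-fold lower, where 8.4% and 7.34% of all genes were. At over 1.5-fold the counts were 34 higher and 5 lower, against 18.1% and 17.6% of all genes. With TPM 29 genes were over 2-fold higher and 2 lower, against 13.5% and 4.03% of all genes, so the size of this share depends on the scaling. The median log2FC of the set was 0.41, against -0.03 for other genes, with 80 genes above and 20 below 0 where 48.1% and 51.9% of all genes were. The counting interval lay above 0 for 58 genes and below 0 for 10, against 29.7% and 33.8% of all genes, and past 2-fold with its nearer end for 5 genes upward and 2 downward (2.14% and 2.76%). TPM, which moves every gene of this comparison up by 0.327 on the log2 scale, put 91 genes above and 9 below 0, and other genes move with it.

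**Figure D1:**
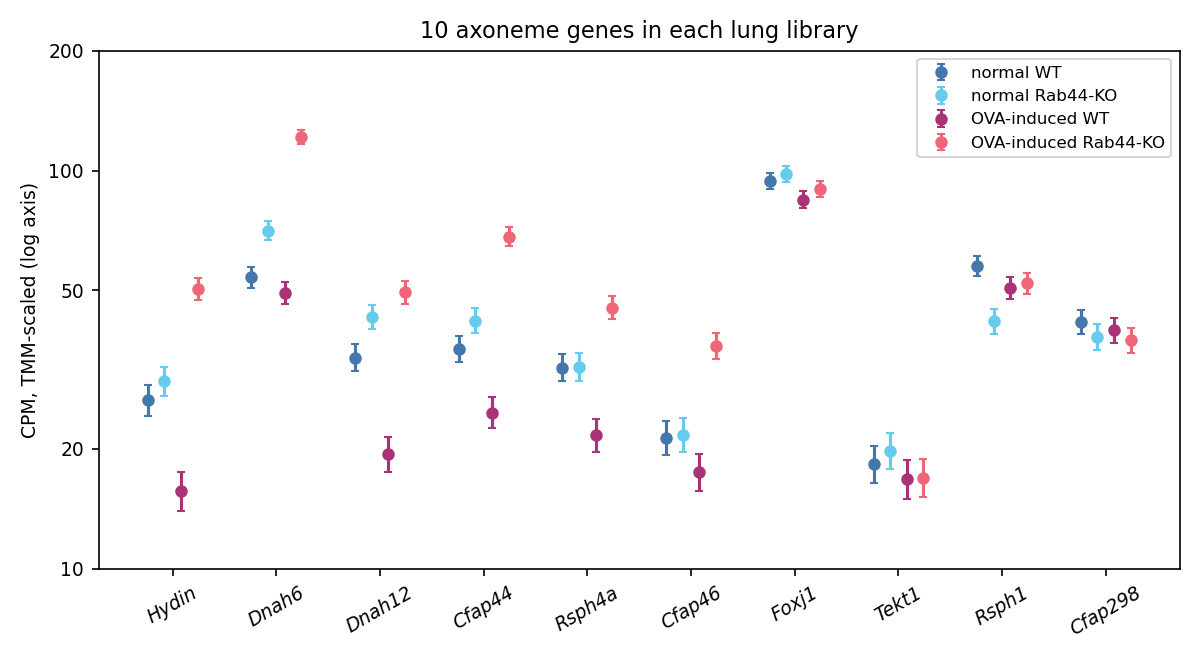
Levels of 10 genes, in TMM-scaled CPM on a log axis, in each of the 4 libraries. Points are single libraries and bars are exact 95% Poisson intervals for counting error. Genes were picked after their values were seen to show both patterns. The 6 genes on the left had their highest point in OVA-induced Rab44-KO and their lowest in OVA-induced WT lungs, whereas in Foxj1, Tekt1, Rsph1 and Cfap298 both OVA-induced points lay close together.

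The central pair held the largest upward difference. Hydin (chromosome 8 of GRCm38, 110266977 to 110610253), a giant protein that links the central microtubules, had 509 normal and 303 OVA-induced counts in WT lungs, and 540 and 984 in Rab44-KO lungs. It was low in OVA-induced WT and high in OVA-induced Rab44-KO lungs, while both normal libraries lay between them. Between genotypes its log2FC was 1.69 (1.5 to 1.88) with OVA and 0.16 without. Of 12 central pair genes, 11 were above 0 in the OVA-induced comparison, with a median of 0.95. Cfap46 (339 and 709 counts in OVA-induced WT and Rab44-KO lungs, log2FC 1.05) and Cfap47 (64 and 134 counts, 1.06) were also over 2-fold higher. Spef2, needed for assembly of the central pair, had 257 and 503 counts (0.96). The exception was Spef1, a short microtubule-bundling protein of the central pair, which had 779 normal and 661 OVA-induced counts in WT, and 631 and 522 in Rab44-KO lungs. Its log2FC between the OVA-induced libraries was -0.35 (-0.52 to -0.18). With TPM, which moves the other central pair genes up as well, this value lies close to 0. In addition, 13.4% of the exon bases of Spef1 overlap other genes, so its counts are uncertain.

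The inner-arm dynein heavy chains, the motors that shape the bend of the beat, were all above 0 under OVA-induced conditions. Their median log2FC was 1.03 over 9 genes, and 6 of them were over 2-fold higher. All 9 have transcripts over 12 kb, and of 171 other genes of that length 143 were above 0 and 36 over 2-fold higher. Dnah6 (chromosome 6, 73017606 to 73221651) had 1035 normal and 955 OVA-induced counts in WT, and 1290 and 2372 in Rab44-KO lungs. OVA-induced Rab44-KO lungs held the highest count, and the other libraries were nearer to each other, which gave a log2FC of 1.30 (1.19 to 1.41). Dnah12 (chromosome 14, 26693274 to 26891703) had 651 and 376 counts in WT, and 784 and 964 in Rab44-KO lungs, which makes a log2FC of 1.35 (1.18 to 1.52). Its OVA-induced WT library lay further below the normal WT library (-0.80) than that of Dnah6 did (-0.13). Dnah3 (1.03) and Dnah1 (1.03) also exceeded 2-fold, and Dnah10 was just under it (0.98). Dnah7b (1.62) and Dnah7a (1.20) exceeded 2-fold and Dnah7c (0.44) did not, but these paralogs share 6.71% to 12.7% of their 150-base windows with each other, so the split of reads among them is uncertain.

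The outer-arm dynein heavy chains, which give the beat its power, did not move as one. Dnah5 (chromosome 15, 28203752 to 28472052), the main outer-arm motor of airway cilia, had 1212 normal and 904 OVA-induced counts in WT, and 1261 and 1581 in Rab44-KO lungs. The OVA-induced libraries differed by a log2FC of 0.80 (0.68 to 0.92). Dnah9 had 513 and 900 counts in the OVA-induced libraries (0.80), and Dnah11 had 328 and 662 (1.0). Dnah8 (chromosome 17, 30624354 to 30877365) and Dnah17, the outer-arm chains known from the sperm tail, were lower. Dnah8 had 158 and 224 counts in WT, and 166 and 170 in Rab44-KO lungs, with a log2FC of -0.41 (-0.70 to -0.11). Dnah17, named after its value was seen, had 339 and 365 in WT, and 290 and 292 in Rab44-KO lungs (-0.33). The other 14 of 16 genes over 12 kb were above 0. With TPM the values of Dnah8 and Dnah17 lie close to 0, but TPM moves the other chains up as well, so both stay below them.

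The smaller parts of the dynein arms differed less. Intermediate and light chains had a median log2FC of 0.43 over 7 genes, with 6 above 0. Dnai4 had 440 counts in WT and 756 in Rab44-KO after OVA (0.77) and Dnai7 202 and 358 (0.82), whereas Dnal4, a light chain encoded by a short transcript, had 526 and 476 (-0.15, interval -0.34 to 0.03). Dnal1, a light chain of the outer arm, had 602 and 725 (0.26). The docking complex, which fixes outer arms to the doublet, had a median of 0.10 over 4 genes. Odad1 had 320 and 317 counts (-0.02) and Odad2 had 172 and 254 (0.55). Odad3 (187 and 209 counts, 0.15) and Odad4 (326 and 341 counts, 0.06) lay between them, with counting intervals on both sides of 0. Among proteins that tether inner arms, Cfap44 (chromosome 16, 44394796 to 44482428) had 685 normal and 478 OVA-induced counts in WT, and 767 and 1330 in Rab44-KO lungs, with a log2FC of 1.47 (1.31 to 1.62). Cfap43, its partner in the same complex, had 1309 and 1174 in WT, and 1533 and 1506 in Rab44-KO lungs (0.35, interval 0.24 to 0.46). The counting intervals of these partners, whose transcripts measure 6583 and 5968 bases, did not overlap. Cfap57 had 281 and 419 counts after OVA (0.57) and Cfap100 had 459 and 547 (0.24).

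Radial spokes and the nexin-dynein regulatory complex, which pass signals from the central pair to the dyneins, had a median log2FC of 0.41 over 13 genes, with 9 above 0. Rsph4a (chromosome 10, 33905111 to 33916021), a spoke head protein, was the only gene over 2-fold higher with a transcript under 4 kb. It had 615 normal and 419 OVA-induced counts in WT, and 586 and 882 in Rab44-KO lungs, with a log2FC of 1.06 (0.89 to 1.24). Rsph1, which sits in the same spoke head, had 1106 and 983 in WT, and 763 and 1017 in Rab44-KO lungs, with a log2FC of 0.04 (-0.09 to 0.17). Cfap251 (0.67) and Drc1 (0.54) were higher, and Rsph9 (-0.14) lay near 0. Rsph3a had 494 and 297 counts (-0.74) and its paralog Rsph3b 200 and 198 (-0.02), but they share 39.6% and 43.3% of their windows, so their split is uncertain. Together they had 694 and 495 counts.

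Tektins and other microtubule inner proteins, mostly short, had a median log2FC of 0.19 over 16 genes. Tekt1, a filament protein of the doublet, had 352 normal and 325 OVA-induced counts in WT, and 361 and 330 in Rab44-KO lungs, with a log2FC of 0.01 (-0.21 to 0.24). All 4 libraries were within a narrow range. Tekt2 (164 and 221 counts, 0.42) and Cfap53 (187 and 298 counts, 0.66), an inner protein also needed for nodal cilia, were higher in Rab44-KO, and Cfap126 (0.01), Cfap141 (-0.03) and Cfap20 (-0.14) lay near 0. Foxj1 (chromosome 11, 116330704 to 116335399), the transcription factor of the program, had 1807 and 1636 in WT, and 1788 and 1755 in Rab44-KO lungs, and its log2FC of 0.09 (-0.01 to 0.19) was small beside those of the dyneins. The other 23 Cfap and axonemal genes with enough counts had a median of 0.26, from -0.33 for Cfap410 to 0.90 for Cfap77. Among them, Cfap65 had 1025 and 1460 counts in the OVA-induced libraries (0.50), Cfap58 had 225 and 345 (0.61) and Cfap36 had 1376 and 1224 (-0.18, or 0.15 with TPM). Cfap299, which overlaps other genes in 19.1% of its exon bases, had 89 and 125 (0.48). Both genes over 2-fold lower belong to Spag genes known outside the axoneme. In the same group Spag1, which takes part in dynein arm assembly in the cytoplasm, had 146 and 247 counts after OVA (0.75). Spag9 had 3117 and 5066 (0.69) and Spag7 had 988 and 618 (-0.69). Spag5, a mitotic spindle protein, had 43 normal and 81 OVA-induced counts in WT, and 50 and 25 in Rab44-KO lungs (-1.70). Spag11b, an epididymal defensin-like gene, had 7 and 17 in WT, and 5 and 1 in Rab44-KO lungs, a log2 ratio between the OVA-induced libraries of -4.10 (-9.48 to -1.42).

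**Figure D2:**
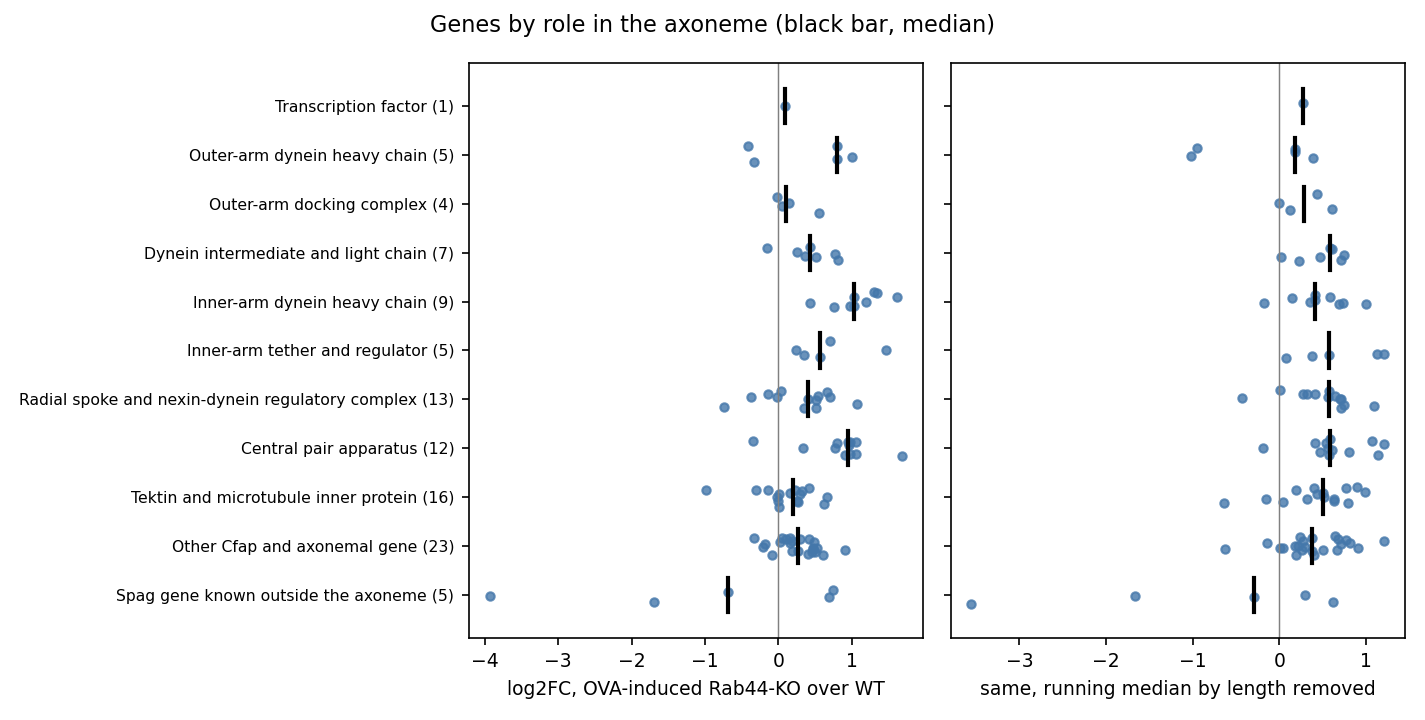
log2FC of OVA-induced Rab44-KO over OVA-induced WT lungs for each gene with enough counts, by role, with the number of genes in parentheses. Points are genes, spread vertically only for display, and black bars are medians. The left panel gives the values as computed, with medians of 1.03 for inner-arm heavy chains and 0.19 for tektins and inner proteins. The right panel gives them after the running median of all genes along transcript length was removed, where these medians are 0.42 and 0.51.

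The differences between genes ran with transcript length, while the medians of the roles followed it only in part, since outer-arm heavy chains had the longest transcripts (median 14973 bases) but a lower median log2FC than the central pair (6262.5 bases). Across the 99 genes with a length, Spearman's rho of log2FC with the longest annotated transcript was 0.522 in the OVA-induced comparison, and across 17346 genes of all kinds it was 0.352. Where one of both libraries reached 100 counts, these were 0.573 over 87 genes and 0.529 over 13257. These are descriptions across genes, which are not independent replicates. The 26 genes of the set under 2 kb had a median log2FC of 0.16, the 36 from 2 to 4 kb 0.34, the 18 from 4 to 8 kb 0.62 and the 19 over 8 kb 1.0. Other genes in the same bins had medians of -0.36, -0.15, 0.18 and 0.53. Both series climbed with length, and the set lay above other genes in each bin, by 0.52, 0.49, 0.44 and 0.47. For the 16 genes over 12 kb the median was 0.99 against 0.66 for 171 other genes of that length, a difference of 0.33 in a bin added after the data were seen.

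Each gene was then compared with the running median of genes nearest in length, with 250 on either side in rank. After this, 86 genes were above and 13 below 0 in the OVA-induced comparison, with a median of 0.44, almost as before the adjustment (0.41). The order of the roles changed. Inner-arm heavy chains came to a median of 0.42 and outer-arm heavy chains to 0.18, while tektins and inner proteins came to 0.51, radial spokes to 0.58, intermediate and light chains to 0.58 and the central pair to 0.58. Hydin kept a value of 1.07, Cfap44 1.13, Rsph4a 1.09 and Dnah7b 1.01. Dnah6 came to 0.69, Dnah11 to 0.39 and Dnah5 to 0.18. Foxj1 came to 0.27, Tekt1 to 0.40 and Rsph1 to 0.42. Dnah8 (-1.02) and Dnah17 (-0.95) were well below other genes of their length. The longest members lie where the window no longer moves, so that their reference is partly genes shorter than they are.

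**Figure D3:**
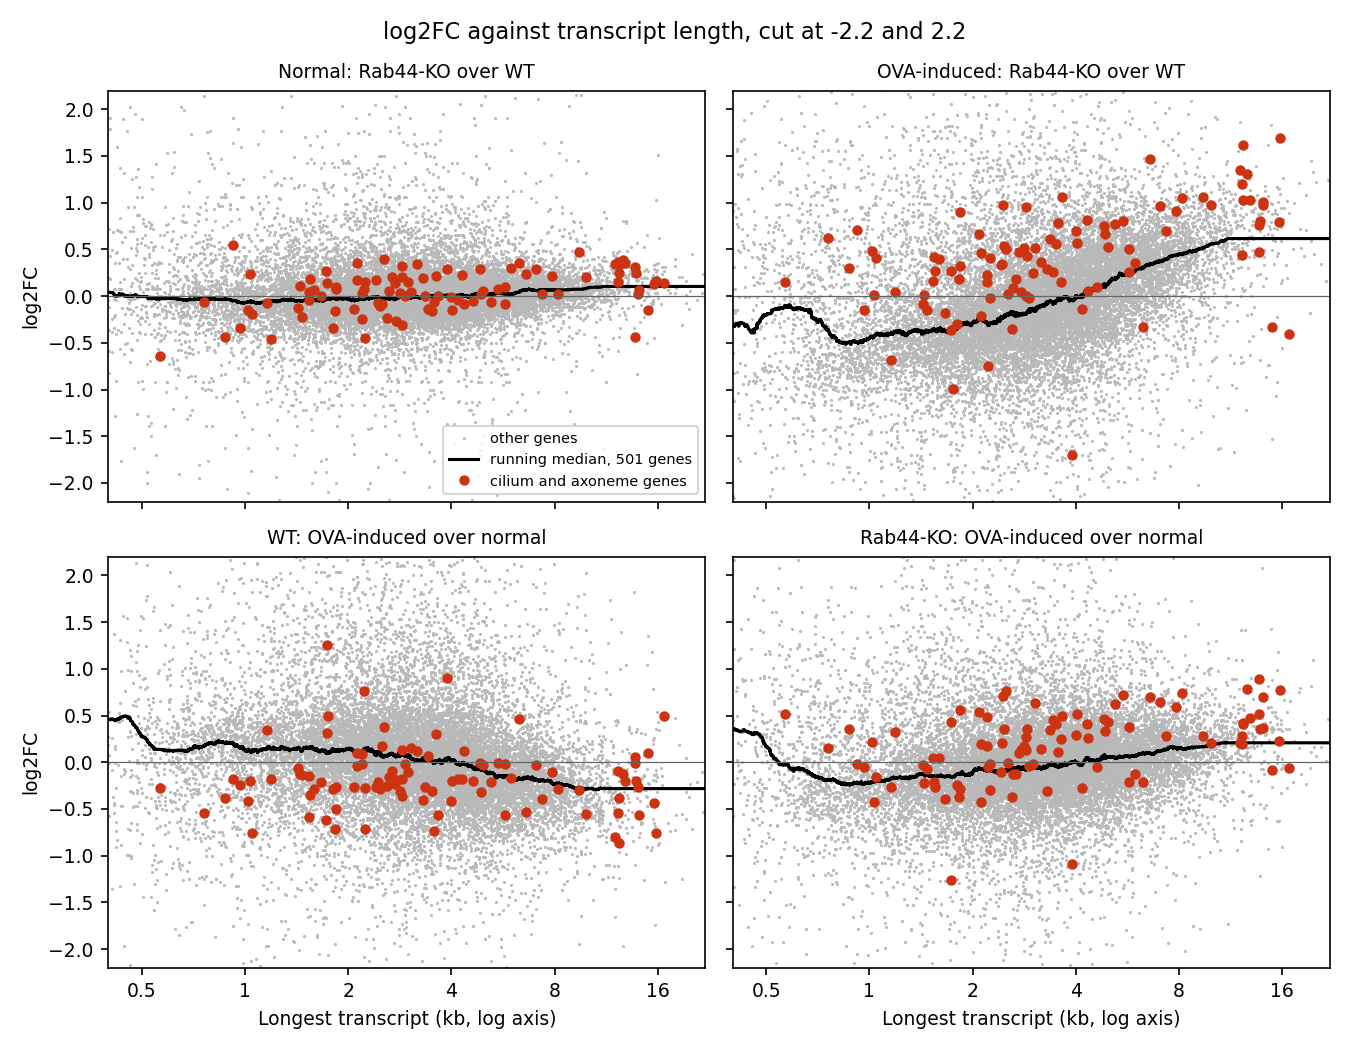
log2FC of each gene against the length of its longest annotated transcript in kb on a log axis, for the 4 comparisons. Red points are cilium and axoneme genes, grey points are other genes with enough counts, and the black line is the running median over 250 genes on either side, which is flat at the ends where the window stops moving. Values beyond 2.2 in either direction, Spag11b in the top right panel among them, are outside the frame. In the comparison of genotypes under OVA-induced conditions (top right) the line climbs from below 0 to above 0 and most red points lie above it.

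The OVA response was examined in each genotype, as OVA-induced over normal lungs. These 2 comparisons share no library with each other, but each shares libraries with the comparisons of genotypes, so they restate the same counts and are given side by side only. In WT lungs, 1 of 99 genes was over 2-fold higher, Spag11b with 7 and 17 counts, and none was over 2-fold lower, against 8.99% and 5.2% of all genes. Over 1.5-fold, 3 were higher and 9 lower (15.4% and 12.9%). The set lay slightly below 0, with a median log2FC of -0.20 against 0.01 for other genes. There 79 genes were below 0 and 20 above (49.7% and 50.3% of all genes), or 89 and 10 with TPM, which moves all genes down by 0.175 before its pseudocount. The counting interval lay below 0 for 44 genes and above 0 for 8, against 27.4% and 29.2% of all genes, and wholly beyond 2-fold for none (4.28% higher and 1.05% lower). The lowest values among dynein heavy chains were those of Dnah7b (-0.86) and Dnah12 (-0.80), and Hydin was at -0.76. Foxj1 was at -0.16, and Dnah8 was at 0.49.

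In Rab44-KO lungs, none of 98 genes was over 2-fold higher and 2 were over 2-fold lower after OVA, against 6.44% and 3.85% of all genes. These were Rsph14, a spoke gene with 103 and 46 counts (-1.26), and Spag5 (-1.09). The median was 0.21 against -0.01 for other genes, with 63 genes above and 35 below 0 (49.1% and 50.9% of all genes), or 79 and 19 with TPM, which moves all genes up by a smaller step. Over 1.5-fold, 13 were higher and 2 lower (12.9% and 10.1%). Counting intervals lay above 0 for 42 genes and below 0 for 14 (25.4% and 26.6%), and none lay wholly beyond 2-fold (1.91% and 0.771%). Dnah6 (0.78), Hydin (0.77), Dnai1, an outer-arm intermediate chain (0.77), and Cfap46 (0.74) were among the higher ones, and Spef1 (-0.37) and Cfap126 (-0.43) were lower. Of the 89 genes with at least 100 counts in some library, 54 had their highest CPM in OVA-induced Rab44-KO lungs, 57 had their lowest in OVA-induced WT lungs, and 43 had both, which is 60.7%, 64% and 48.3%. Of 13810 other genes at that count these shares were 27.3%, 32.3% and 16.2%, and of the 752 with transcripts over 8 kb they were 69.4%, 75.5% and 56.9%.

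The relation to length differed among the comparisons. In Rab44-KO lungs, rho of the OVA response with transcript length was 0.426 over 97 genes of the set, and 0.154 over all genes. In WT lungs it was -0.0144 over 98 genes of the set and -0.237 over all genes. By bins, the set in WT lungs had medians of -0.26, -0.18, -0.17 and -0.29 from the shortest to the longest bin, where other genes had 0.16, 0.06, -0.10 and -0.27. The set thus stood apart from other genes of its length by -0.41 under 2 kb and by only -0.02 over 8 kb. In Rab44-KO lungs the set had -0.06, 0.16, 0.39 and 0.37, and other genes -0.13, -0.06, 0.06 and 0.18. Under normal conditions, the genotypes differed by -0.05, 0.03, 0.07 and 0.21 in the set and by -0.04, -0.01, 0.02 and 0.08 in other genes. After removal of the running median, the medians of the set were 0.05 for genotype under normal conditions, -0.23 for the OVA response in WT and 0.20 for that in Rab44-KO lungs.

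**Figure D4:**
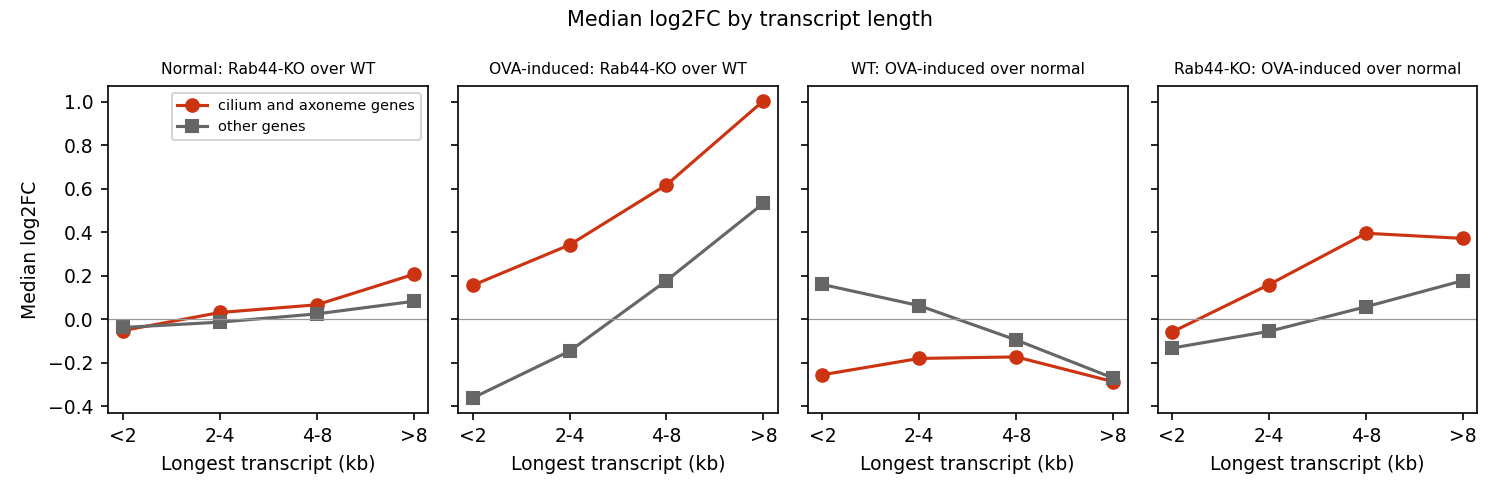
Median log2FC of cilium and axoneme genes (red circles) and of other genes (grey squares) in 4 bins of transcript length in kb, for the 4 comparisons. Each point is a median over the genes with enough counts in that bin and carries no replicate error. Red lies above grey in all bins of the OVA-induced genotype comparison (OVA-induced panel of Rab44-KO over WT), while in the OVA response of WT lungs (WT panel) red lies below grey in the short bins and meets it in the longest.

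Other parts of the cilium were read from gene lists outside the set. Of 36 multiciliated cell markers listed, 34 were found by symbol outside the set and 33 had enough counts. Fam183b, a listed symbol that was not found, is another name of Cfap144, which is in the set. The 33 markers had a median log2FC of 0.19 in the OVA-induced comparison of genotypes, with 23 above and 10 below 0, and of 0.56 after adjustment for length. By length, their medians were -0.02 under 2 kb, 0.48 from 2 to 4 kb and 0.71 from 4 to 8 kb, which run below the set in the first bin and above it in the others. Ccdc39, a ruler protein that spaces the dynein arms, had 951 counts in WT and 1789 in Rab44-KO after OVA (0.90). Tppp3, a short and abundant tubulin-binding protein of ciliated cells, had 5800 and 4587 (-0.35). The markers over 2-fold higher were Aqp4, a water channel (2.08; 79 and 337 counts), and Zbbx (1.36; 25 and 65 counts), and none was over 2-fold lower. The 8.4% and 7.34% of all genes over 2-fold higher and lower, given above, apply to every list here, and 2 of 33 lies below the former. Intraflagellar transport genes, which carry cargo along all cilia, had a median of 0.09 over 30 genes (0.18 after adjustment for length), and the 1 over 2-fold higher was Dync2h1, the long heavy chain of the transport dynein (1.12). Dynein arm preassembly factors had a median of -0.07 over 15 genes, which turned to 0.28 after that adjustment. Multiciliogenesis regulators had -0.15 over 14 genes (0.00 adjusted). Of these, Rfx3, an X-box factor with a transcript of 9146 bases (1.28), and Gmnc, a starter of the program with 4084 bases (1.20; 28 and 65 counts), were over 2-fold higher, and Cdc20b (-1.17; 18 and 8 counts) was over 2-fold lower. The list of ciliary tubulins and their modifying enzymes had a median of 0.37 over 15 genes (0.41 adjusted). It also held Ccp110 (0.74) and Tubgcp5 (0.40), which are neither tubulins of the axoneme nor such enzymes. Of the 15, the tubulin deglutamylases Agbl4 (1.86; 4 and 15 counts) and Agbl2 (1.0; 194 and 391 counts) and the glycylase Ttll8 (1.15; 29 and 65 counts) were over 2-fold higher. In all, 9 were above and 6 below 0. Below 0 were the tubulins Tuba1a (-0.71), Tuba4a (-0.60) and Tubb4b (-0.32), of which Tuba1a and Tubb4b are also expressed by other cells. The modifier genes Tpgs1 (-0.80; 497 and 287 counts), Tpgs2 (-0.18) and Ttll1 (-0.16) were below 0 too.

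Several other cell types differed between the same libraries. Leukocyte markers summed to 5271 CPM in normal and 10883 CPM in OVA-induced WT lungs, and to 5859 and 5671 CPM in Rab44-KO lungs, a sum that is mostly Lyz2, a macrophage and granulocyte lysozyme. Without Lyz2 the sums were 330.6 and 1016.5 CPM in WT, and 345.2 and 887.4 CPM in Rab44-KO lungs, so they were higher with OVA in both genotypes. By gene, all 9 with enough counts were above 0 in the OVA response of WT lungs (median 1.61), and 8 of 9 in that of Rab44-KO lungs (median 0.85), with S100a9, a neutrophil protein, at 3.03 there. In the OVA-induced comparison of genotypes 3 were above and 6 below 0 (median -0.75), with S100a9 at 0.48. Of the 9, 4 were over 2-fold lower there and 0 over 2-fold higher (7.34% and 8.4% of all genes). Goblet cell markers, which make airway mucus, summed to 64.6 and 1919 CPM in WT, and to 71.2 and 57.9 CPM in Rab44-KO lungs. Clca1, a secreted goblet cell protein, made up 89.9% of the sum in OVA-induced WT lungs, and all 7 genes were above 0 in the OVA response there. Heart muscle markers summed to 767 and 337 CPM in WT, and to 848 and 758 CPM in Rab44-KO lungs, so they too were lowest in OVA-induced WT lungs, with 7 of 8 above 0 in the OVA-induced comparison. Club cells, the secretory neighbours of ciliated cells, summed to 26968 and 19126 CPM in WT, and to 27576 and 21876 CPM in Rab44-KO lungs, of which Scgb1a1, their main secreted protein, made up 81.6% to 86.5%. By gene, club cell markers went both ways, with 4 of 8 above 0 in the OVA response of WT lungs and 4 of 8 in the OVA-induced comparison of genotypes (median -0.03), but none of 8 in the OVA response of Rab44-KO lungs. Alveolar type 1 cells summed to 6222 and 4505 CPM in WT, and to 5569 and 4844 CPM in Rab44-KO lungs. By gene, 4 of 8 were above 0 in the OVA-induced comparison of genotypes. Type 2 cells summed to 21412 and 30858 CPM in WT, and to 21472 and 18761 CPM in Rab44-KO lungs, of which the surfactant gene Sftpc made up 49.5% to 63.8%. Without Sftpc the sums were 7756 and 12168 CPM in WT, and 8437 and 9471 CPM in Rab44-KO lungs, so the Rab44-KO sum was then higher with OVA, and 5 of 8 genes were above 0 there (median 0.09). Airway smooth muscle (942 to 1100 CPM) varied little, and basal cells (4.67 to 10.1 CPM) and airway cartilage (10.6 to 13.6 CPM, with Acan and Col9a1 at 0) were scarce. The part of these differences in the levels of the cilium genes was not tested.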

How the data were processed

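Directional paired-end libraries of mouse lung RNA were sequenced, 1 per condition. The authors trimmed the reads, aligned them with HISAT2, to GRCm38 as the study's methods state, and deposited raw counts per gene from featureCounts. TPM values deposited beside them are these counts divided by 1 length per gene and scaled to a fixed sum per library. Versions, strand setting and handling of reads with several matches were not given in the sources used here. The number of per-sample columns left unused was 0. Depth was 18112901 to 19910236 counts. Positions and longest transcripts are those of GENCODE M21 on GRCm38, found for 104 of the 106 genes. Gene spans in the deposited table overlap those of GENCODE M21 for 13.1% of 31457 matched genes and 35 of 104 members, so the build behind the counts is not settled and the deposited coordinates were not used. Annotated lengths and exon overlaps may therefore differ from the models that were counted. Lengths implied by counts over TPM were over 3-fold apart from the annotated ones for 5 of 101 members (Cfap20, Cfap92, Cfap99, Cfap100 and Cfap410).

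Counts were scaled with TMM in edgeR 4.0.16 (R 4.3.3; factors 0.973 to 1.02). log2FC used a small prior count scaled to library size and at least 10 counts in the higher library, and over 2-fold means an absolute log2FC above 1. Python 3.11.15, numpy 2.4.6, pandas 2.3.3, scipy 1.17.1, matplotlib 3.10.9 and bedtools 2.31.1 did the rest. With 1 library per group, no p-value was computed, and an additive fit over the 4 libraries was not run. The length adjustment subtracts a running median over 250 genes on either side. Shared sequence is the share of 150-base windows of the transcripts that occur in another gene. On simulated counts over 41079 genes, all 200 genes changed 4-fold were recovered as over 2-fold after adjustment in the comparison of genotypes under OVA-induced conditions. These counts held counting error only, and the changed genes had at least 100 expected counts. The simulated trend with length was also stronger than in the data (rho 0.814 against 0.352). Recovery of smaller differences, or with spread between mice, was not simulated.

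The members and lists were chosen with earlier results of these data known. Genes named are Foxj1, Hydin, Spef1 and Spef2, in each role the 3 with the highest mean CPM and the 2 with the largest absolute log2FC in the OVA-induced comparison of genotypes among those with at least 100 counts, those over 2-fold with at least 100 counts, and the 3 longest and 3 shortest. Others were named after their values were seen. Alternatives were DESeq2 1.42.0 size factors, total counts, TMM on the 2 compared libraries, a prior count of 2, TPM with a pseudocount of 0.1, count minimums of 1, 50 and 100, thresholds of 1.5-fold and of intervals wholly beyond 2-fold, narrower and wider windows for the running median, a running median over genes with at least 100 counts, lengths implied by counts over TPM, prefixes without a digit, and omission of the Spag genes known outside the axoneme. The bin over 12 kb and its reference genes were added after the data were seen.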

Additional observations from a re-analysis of the deposited data

Results flagged for a closer look

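Cfap410, a cilium-associated gene with 204 normal and 284 OVA-induced counts in WT, and 248 and 228 in Rab44-KO lungs, differed between genotypes in opposite directions. Rab44-KO over WT gave a log2FC of 0.35 without OVA and of -0.33 with it. The counting intervals exclude 0 on both sides, but with 1 library per condition the difference between the conditions was not tested. With TPM the first value is 0.38 and the second lies close to 0. After adjustment for annotated transcript length (6282 bases) the values are 0.32 and -0.63, but the length implied by counts over TPM is 2082 bases, and adjustment for that length gives 0.39 and -0.04. The value with OVA thus depends on the scaling and on the length used.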

How the results depend on the processing

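No paired analysis was possible because each group holds 1 library, and for the same reason no replicate could be left out. The median log2FC of the set, before and after length adjustment, kept its sign in each comparison under every alternative run for it; the adjusted median was run under other lengths, windows and reference genes, a count minimum of 50 and omission of Spag genes, not under other scalings. TPM moved the median of the OVA-induced comparison of genotypes most, to 0.70, and its count over 2-fold from 14 to 31 (29 higher, 2 lower), and 11 genes changed sign. Total counts gave 19. That count was 7 with intervals wholly beyond 2-fold and 39 over 1.5-fold. Under normal conditions, the count of 0 became 1 with a count minimum of 1 and 1 over 1.5-fold. For the OVA response in WT, the count of 1 became 0 with TPM, with count minimums of 50 and 100, without the Spag genes and with intervals wholly beyond 2-fold, 2 with a count minimum of 1 and 12 over 1.5-fold. In Rab44-KO lungs, the count of 2 became 1 with TPM, with a count minimum of 100 and without the Spag genes, 4 with a count minimum of 1, 0 with intervals wholly beyond 2-fold and 15 over 1.5-fold. Fewer genes pass higher count minimums, and the other causes were not tested. Intervals cover counting error and not the spread between mice, which 1 library per condition does not give.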
